A study of Homo sapiens with 8 samples.

Results

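The genes described here are 10 human genes for serine synthesis (PHGDH, PSAT1, PSPH), folate one-carbon metabolism (SHMT1, SHMT2, MTHFD1, MTHFD2), proline synthesis (PYCR1) and leucine uptake (SLC7A5, SLC3A2). They were taken by symbol from a table of 4616 genes, and 9 of the 10 had a row. PSPH, the phosphatase of the last step of serine synthesis, had none and was not analysed here. The measurements came from WM902B, a cell line established from a primary melanoma that carries an activating BRAF mutation. Cells at passage 18 had been infected with a hairpin named shSCR, the scrambled control, or with shTINCR, directed at the long non-coding RNA TINCR. Both conditions received cycloheximide, which halts elongating ribosomes, at 100 µg/ml for 5 min. The 8 libraries were 4 of ribosome-protected fragments and 4 of RNA, with 2 biological replicates for each hairpin and kind of library. The RNA libraries have total RNA in their titles and polyA RNA as their molecule.

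The values were the authors' gene-by-gene comparison of the hairpins, with no value for any single library, so the spread between replicates and the sequencing depth are unknown. Translational efficiency (TE) is the ratio of ribosome footprints to RNA of a gene, so a change may come from either part, and which part moved cannot be told from the table. The labels give 1 line and 1 name per hairpin. TINCR had no row, and how far it was silenced was therefore not checked. Of 9 melanocytic marker genes 8 had a row, against 0 of 4 keratinocyte markers and 1 of 3 fibroblast markers. The libraries were made from whole cultures, and a change in all cells cannot be told apart from a larger change in some of them.

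Serine is made from a glycolytic intermediate by PHGDH, PSAT1 and PSPH acting in turn. The SHMT enzymes then split serine into glycine and a one-carbon unit carried by folate, which MTHFD enzymes convert into the forms used for purines, thymidylate and methionine. SLC7A5 (LAT1) imports leucine and other large neutral amino acids, and needs the glycoprotein SLC3A2 (CD98 heavy chain) to reach the cell surface. Many of these genes are known as targets of ATF4, a transcription factor of the amino acid response whose own translation is set by upstream reading frames. PHGDH is often abundant in melanoma, in some tumours through copy number gain.

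The sequences before the annotated starts are shown for PHGDH, PSAT1 and SLC7A5, which rose, and for MTHFD1, which did not pass the threshold. They are the 150 bases before the start in RefSeq's GRCh38.p14 annotation, read 5′ to 3′ on the strand of the gene, with capitals for a match to CACGTG, the E-box letters bound by MYC and related factors. PHGDH lies on the plus strand at chr1:119711784-119711933, PSAT1 on the plus strand at chr9:78296975-78297124, SLC7A5 on the minus strand at chr16:87869508-87869657 and MTHFD1 on the plus strand at chr14:64388203-64388352.
PHGDH: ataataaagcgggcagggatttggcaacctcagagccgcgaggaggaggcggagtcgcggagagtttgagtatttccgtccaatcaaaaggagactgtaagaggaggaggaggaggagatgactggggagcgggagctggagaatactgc
PSAT1: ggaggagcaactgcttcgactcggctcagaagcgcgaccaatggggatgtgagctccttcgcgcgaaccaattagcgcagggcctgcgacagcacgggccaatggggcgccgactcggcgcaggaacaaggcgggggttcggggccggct
SLC7A5: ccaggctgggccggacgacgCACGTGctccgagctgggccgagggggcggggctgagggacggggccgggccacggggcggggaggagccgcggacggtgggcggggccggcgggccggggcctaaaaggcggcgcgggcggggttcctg
MTHFD1: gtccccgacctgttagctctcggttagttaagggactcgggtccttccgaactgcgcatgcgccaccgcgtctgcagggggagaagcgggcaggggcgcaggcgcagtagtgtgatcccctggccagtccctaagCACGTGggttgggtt

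RefSeq windows of 250 bases before to 50 bases after a start were matched for 7 of the 10 genes, in 9 windows, of which 3 belong to SLC3A2. PSPH, SHMT2 and PYCR1 had no match. CACGTG, which reads the same on both strands and was counted once, began 130 bases before the start of SLC7A5 and 15 bases before that of MTHFD1. It was in 7.26% of all 35116 windows and in 10.8% of the 5409 windows of genes in the table. The E-box letters were thus in front of 1 gene whose TE rose and 1 whose TE did not pass. Both matches lie before the annotated start, and a link between them and TE was not tested.

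The letters TGATGNAA, searched on both strands as the composite site of ATF4 with C/EBP factors, were in 3.62% of all windows and in 1.92% of those of genes in the table. Among the 7 genes they were found only for SLC3A2, on the opposite strand at bases 38 to 45 after 1 of its 3 starts. This stretch is printed for that match, in capitals, with GRCh38.p14 coordinates chr11:62881719-62881748 on the plus strand.
SLC3A2: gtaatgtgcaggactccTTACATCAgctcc
No such letters were in the windows of PHGDH, PSAT1 and SLC7A5. A start with C and at least 4 more pyrimidines, as in mRNAs with a terminal oligopyrimidine tract, was annotated for MTHFD2, with 5 pyrimidines. Such starts were in 4.07% of all windows and in 6.19% of those of genes in the table. The GC content of the windows ranged from 52.7% for PHGDH to 80.3% for SLC7A5, and the median was 65.0% for genes in the table. Annotated starts need not be those used in these cells, and whether any of these features bears on TE was not tested.

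The comparison addressed whether ribosome occupancy per mRNA of these genes differed between shTINCR and shSCR cells. TE of PHGDH and SLC7A5 rose most, 1.56-fold and 1.55-fold in the authors' deposited table, and that of SLC3A2 and PSAT1 rose 1.23-fold each. The 4 folate enzymes lay between 0.899-fold and 1.12-fold in the authors' deposited table and none passed the threshold, which was a deposited adjusted p below 0.05. At that threshold 4 of the 9 measured genes rose (44.4%) and 0 fell, while among all 4616 genes 8.23% rose, 8.17% fell and 16.4% did either. Without adjustment, 5 of the 9 had a deposited p below 0.05, the fifth being PYCR1, and so had 29.5% of all genes. The median log2 change of the 9 genes was 0.29, a 1.22-fold higher TE, beside 0.02 over all genes. The genes were chosen with earlier results of these data known, so these counts and medians are descriptions. The intervals given below treat each deposited p-value as coming from a normal test statistic, are not adjusted for many genes, and replace no replicate error.

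**Figure D1:**
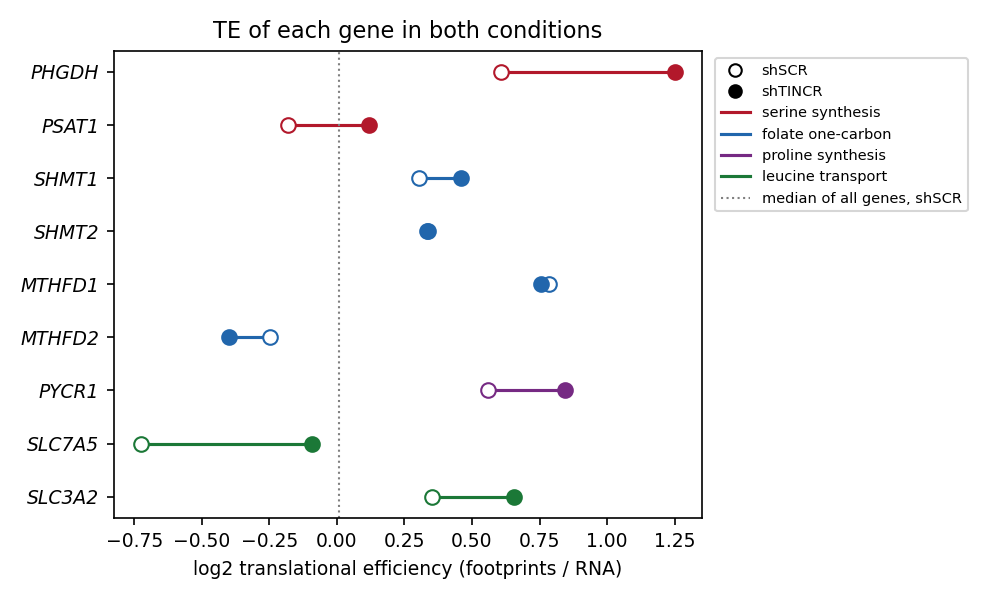
Log2 TE (horizontal axis) of each of the 9 measured genes in shSCR (open circles) and shTINCR cells (filled circles), as the authors' combined value per condition; colours give the pathway and the dotted line is the median of all genes in shSCR cells. The longest lines belong to PHGDH, from 0.61 to 1.25, and SLC7A5, from -0.73 to -0.09, while the circles of SHMT2 coincide.

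PHGDH catalyses the first and committed step of serine synthesis. Its log2 TE was 0.61 in shSCR and 1.25 in shTINCR cells in the authors' deposited table, which placed it at the 78.0th percentile of all genes in control cells and at the 93.0th after the hairpin against TINCR. The log2 change was 0.64 (implied 95% interval 0.46 to 0.82, adjusted p = 7.86e-10, the authors' deposited table). PHGDH thus had the highest TE of the 9 genes in shTINCR cells. Ordered from the largest rise to the largest fall, its change was in place 35 of the 4616 genes. By p-value it was in place 25 of all genes and in place 5 of the 2425 with a positive change.

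PSAT1, the aminotransferase of the next step, started lower. In the authors' deposited table its log2 TE was -0.18 in shSCR and 0.12 in shTINCR cells, so it moved from the 41.0th to the 55.0th percentile, across the median gene. Its log2 change of 0.30 had an implied 95% interval of 0.093 to 0.51 and passed less clearly (adjusted p = 0.0342, the authors' deposited table). PHGDH stood above PSAT1 by 0.79 on the log2 TE scale in control cells and by 1.13 in shTINCR cells. Both measured enzymes of serine synthesis therefore rose, and the distance between their TE values was larger in shTINCR cells. Whether their changes differ was not tested. PSAT1 has 4 named pseudogenes in RefSeq, from which reads can be shared, and PHGDH has 0.

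SLC7A5, the transporting chain of the leucine carrier, had the lowest TE of all 9 genes in control cells. Its log2 TE was -0.73 in shSCR and -0.09 in shTINCR cells in the authors' deposited table, a move from the 20.7th to the 45.7th percentile. The log2 change was 0.63 (implied 95% interval 0.43 to 0.84, adjusted p = 2.88e-07, the authors' deposited table). Ordered from the largest rise to the largest fall, it was in place 38 of all genes. By p-value it was in place 42 of all genes and in place 9 of those with a positive change. Even after this rise its TE stayed below that of the median gene. SLC7A5 has 2 named pseudogenes and overlaps an antisense RNA, SLC7A5-AS1. No source used here says whether the counting used strand.

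SLC3A2, its partner chain, started higher and changed less. The authors' deposited table gave it a log2 TE of 0.35 in shSCR and 0.65 in shTINCR cells, from the 66.5th to the 78.6th percentile. Its log2 change was 0.30 (implied 95% interval 0.13 to 0.47, adjusted p = 0.00804, the authors' deposited table). TE of SLC3A2 was 2.11 times that of SLC7A5 in control cells and 1.68 times in shTINCR cells. The chains of the carrier were thus closer in TE after the hairpin against TINCR, although this narrowing was not tested. With no RNA levels, the amounts of the chains made cannot be compared. SLC3A2 serves several other light chains besides SLC7A5.

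**Figure D2:**
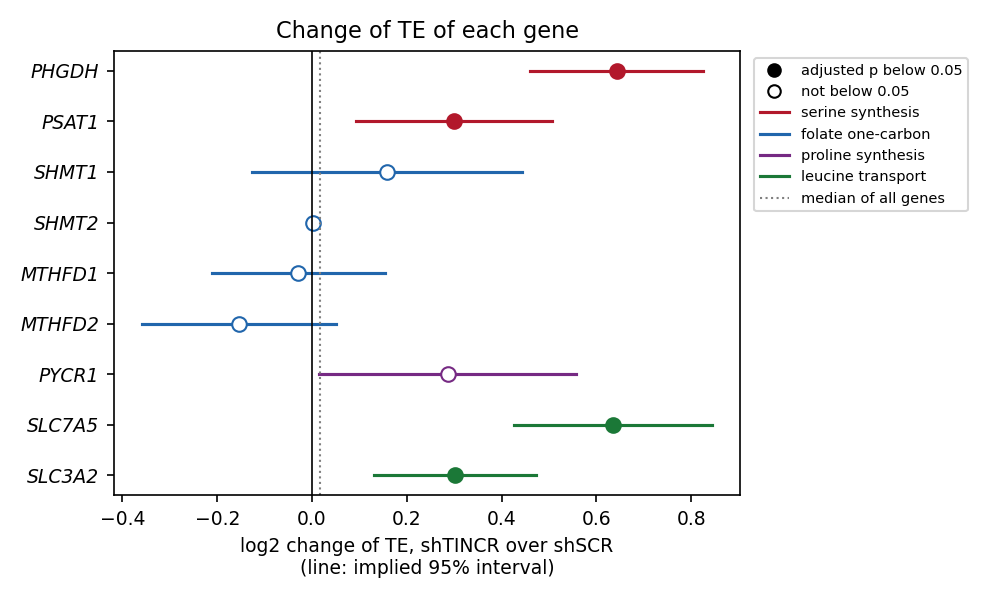
Log2 change of TE, shTINCR over shSCR (horizontal axis), of the 9 measured genes, filled where the deposited adjusted p was below 0.05; lines are 95% intervals implied by the change and its p-value, and SHMT2 has none because its p-value is close to 1. The serine synthesis and leucine transport genes lie between 0.30 and 0.64, and the folate enzymes between -0.15 and 0.16.

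Among the folate enzymes the cytosolic and mitochondrial SHMT forms had similar TE. SHMT1, the cytosolic enzyme, had a log2 TE of 0.30 in shSCR and 0.46 in shTINCR cells, a change of 0.16 (implied 95% interval -0.13 to 0.44, adjusted p = 0.489, the authors' deposited table). SHMT2, the mitochondrial enzyme that supplies most one-carbon units in many proliferating cells, stood at 0.34 in both conditions of the authors' deposited table. Its log2 change was 0.0020 (adjusted p = 0.984, the authors' deposited table), and it turned to -0.014 when the median of all genes was subtracted. So the enzymes that take up serine for one-carbon units did not pass, while both measured enzymes that make serine did; the difference between these groups was not tested.

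The MTHFD enzymes oxidise and interconvert the folate-bound unit. MTHFD1, the trifunctional cytosolic enzyme, had the highest TE of the 9 genes in control cells, with a log2 TE of 0.78 in shSCR and 0.76 in shTINCR cells in the authors' deposited table. Its change was -0.03 (implied 95% interval -0.21 to 0.15, adjusted p = 0.869, the authors' deposited table). MTHFD2, its mitochondrial counterpart and a known ATF4 target, had -0.25 and -0.40, the lowest TE of the 9 genes in shTINCR cells. That change of -0.15 did not pass (implied 95% interval -0.36 to 0.051, adjusted p = 0.333, the authors' deposited table). MTHFD2 has 7 named pseudogenes, the most of the 10 genes. SHMT1, SHMT2, MTHFD1 and MTHFD2 each overlap another protein-coding gene at one end of the locus in RefSeq, and none of those neighbours had a row in the table under its current name or an older name that RefSeq lists.

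PYCR1, the mitochondrial enzyme of the last step of proline synthesis, had a log2 TE of 0.56 in shSCR and 0.85 in shTINCR cells in the authors' deposited table. Its log2 change of 0.29 was close to those of PSAT1 and SLC3A2 but was estimated less precisely (implied 95% interval 0.015 to 0.56). With an adjusted p of 0.142 in the authors' deposited table, it did not pass. ALDH18A1, which acts earlier in proline synthesis, had -0.35 (adjusted p = 0.155, the authors' deposited table) and is named after its value was seen.

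By level, the order in control cells ran from MTHFD1 at the 84.6th percentile through PHGDH, PYCR1, SLC3A2, SHMT2, SHMT1, PSAT1 and MTHFD2 to SLC7A5. In shTINCR cells it ran from PHGDH through PYCR1, MTHFD1, SLC3A2, SHMT1, SHMT2, PSAT1 and SLC7A5 to MTHFD2 at the 32.4th percentile. Of the 9 genes 6 were above the median gene in control and 7 in shTINCR cells. With no replicate values, neighbours in these orders cannot be shown to differ. The log2 TE of the 9 genes spanned 1.51 in control and 1.65 in shTINCR cells.

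**Figure D3:**
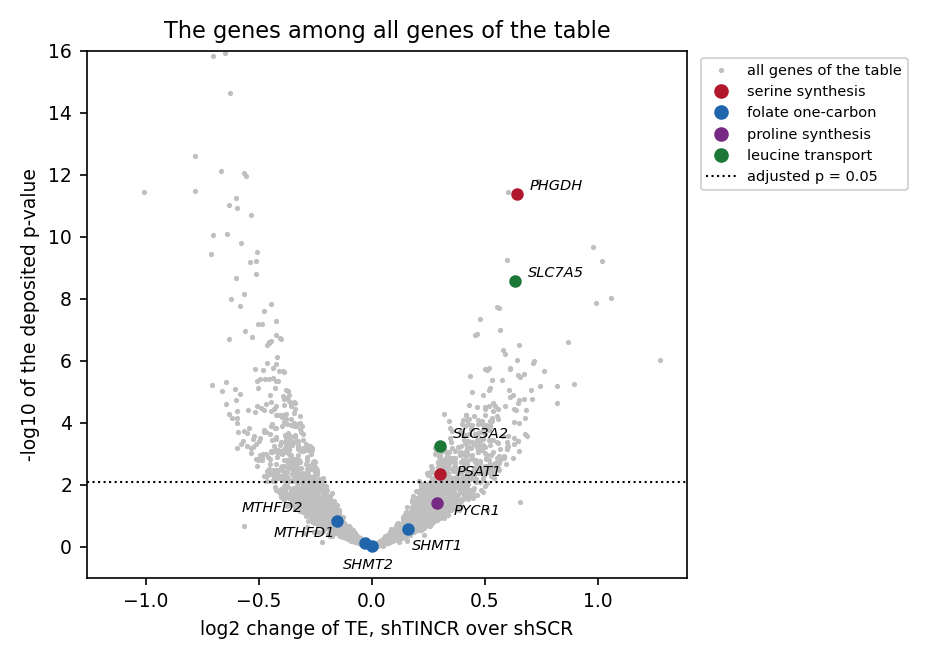
Log2 change of TE, shTINCR over shSCR (horizontal axis), against -log10 of the deposited p-value (vertical axis) for the genes of the table (grey) and the 9 measured genes (coloured by pathway); 13 genes lie above the axis limit of 16. PHGDH and SLC7A5 lie near the upper edge of the genes with a positive change, SLC3A2 and PSAT1 lie just above the dotted line at an adjusted p of 0.05, and the others lie below it.

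Over both conditions, the genes nearest to PHGDH in log2 TE among the 4615 others were SSSCA1, INF2 and MAG, at Euclidean distances of 0.090, 0.093 and 0.11. INF2 encodes an actin-nucleating formin and MAG a glycoprotein of myelin. Their log2 changes of 0.52, 0.51 and 0.73 all passed in the authors' deposited table. Genes this near to PHGDH in both levels have a change of similar size by construction. This likeness rests on 2 combined values per gene.

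Genes of the surrounding pathways were then counted, from 7 lists that hold 64 measured genes besides the 9, each counted once. Of these, 5 rose (7.81%) and 7 fell (10.9%), near the shares of 8.23% and 8.17% over all genes, with a median log2 change of 0.02. ATF4 itself had a log2 change of 0.99 (adjusted p = 1.37e-06, the authors' deposited table). Its TE stayed below that of the median gene, with a log2 TE of -3.73 under the scrambled hairpin and -2.74 under shTINCR. With no RNA levels, a link between ATF4 and the 9 genes was not tested.

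In folate metabolism outside the 4 enzymes above, 0 of 8 measured genes passed at the adjusted p, against 16.4% of all genes. At an unadjusted p below 0.05 it was again 0 of 8, against 29.5% of all genes. The median log2 change was -0.015. The smallest p-value belonged to GART, a purine enzyme that uses formyl folate, at -0.17 (adjusted p = 0.214, the authors' deposited table). MTHFD1L, which releases mitochondrial formate, had 0.018 in the authors' deposited table and is named after its value was seen. With the 4 enzymes above, 0 of 12 measured folate genes passed at the adjusted p, beside 16.4% of all genes. The difference from that share was not tested.

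In purine synthesis the genes past the threshold were all lower in shTINCR cells. Of 12 measured genes 4 fell (33.3%) and 0 rose, beside 8.17% and 8.23% of all genes, with a median log2 change of -0.14. GART and ATIC, which stand in the folate list too, had -0.17 and -0.02 and did not pass (adjusted p = 0.214 and 0.918, the authors' deposited table). ATIC is named after its value was seen. GMPS and IMPDH2, which lead to GMP, fell by 0.40 (adjusted p = 0.00264) and by 0.39 (adjusted p = 0.000589) in log2 units of the authors' deposited table. ADSS, on the branch to AMP, fell by 0.36 and PAICS, in the shared part of the pathway, by 0.33 in the authors' deposited table. PPAT, the committed step, had -0.29 and did not pass (adjusted p = 0.176, the authors' deposited table).

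In the methionine cycle and transsulfuration, 1 of 10 measured genes rose and 1 fell (10.0% each), beside 8.23% and 8.17% of all genes. The median log2 change was -0.03. AHCY, which clears S-adenosylhomocysteine, fell by 0.34 (adjusted p = 0.000765) and ADI1, of methionine salvage, rose by 0.32 (adjusted p = 0.0402) by the authors' deposited table. MTAP and AHCYL2 had -0.29 and 0.29 and did not pass (adjusted p = 0.137 and 0.161, the authors' deposited table). After subtraction of the median change of all genes, ADI1 no longer passed (adjusted p = 0.0537, recomputed from the authors' deposited table). Among 6 measured genes of serine and glycine supply, 1 rose and 1 fell (16.7% each), beside 8.23% and 8.17% of all genes. Their median log2 change was -0.03. SLC1A4, a carrier of neutral amino acids including serine, rose by 0.29 (adjusted p = 0.018) and DLD, a subunit shared by the glycine cleavage system and other mitochondrial complexes, fell by 0.29 (adjusted p = 0.0324) by the authors' deposited table. The glycine cleavage protein GCSH and the mitochondrial serine carrier SFXN1 had -0.19 and 0.04 in the authors' deposited table and did not pass.

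**Figure D4:**
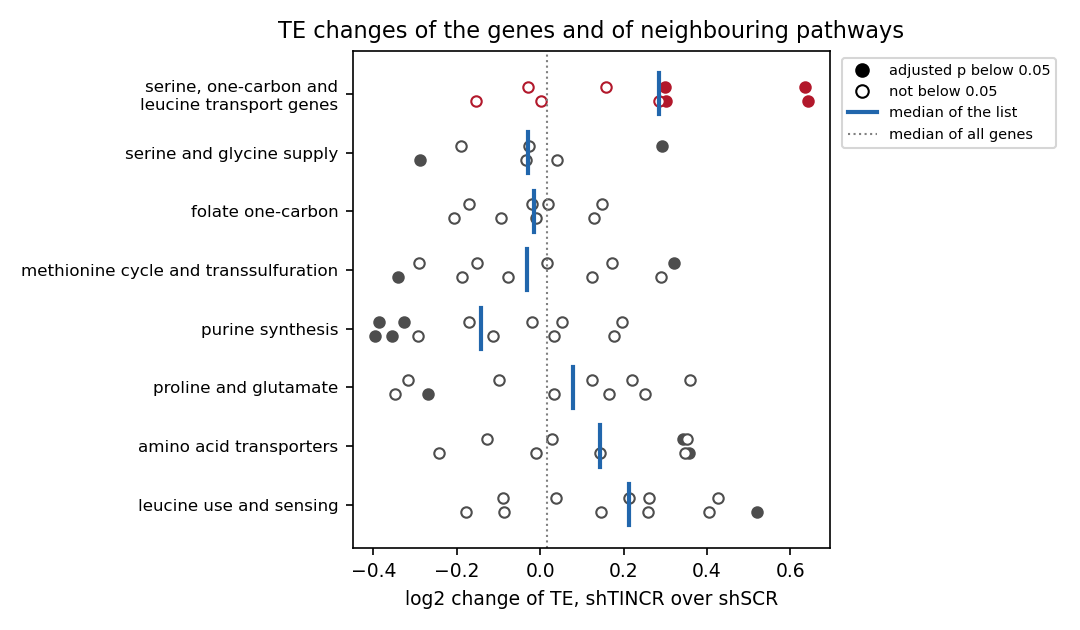
Log2 change of TE, shTINCR over shSCR (horizontal axis), of each measured gene of the 9 and of the 7 surrounding lists, filled where the deposited adjusted p was below 0.05; blue bars are list medians and the dotted line is the median of all genes. The 9 genes have the highest median, 0.29, and purine synthesis the lowest, -0.14; GART and ATIC stand in both the folate and the purine list.

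Of 9 other amino acid transporters on their list 2 rose (22.2%) and 0 fell, beside 8.23% and 8.17% of all genes. Their median log2 change was 0.14. SLC7A1, a carrier of cationic amino acids, rose by 0.36 (adjusted p = 0.0477) and SLC43A3, listed with the amino acid carriers of its family although known for purine bases, rose by 0.34 (adjusted p = 0.0107) by the authors' deposited table. SLC7A8 (LAT2), a light chain that also pairs with SLC3A2, had 0.35 (adjusted p = 0.0778) and SLC38A10 had 0.35 (adjusted p = 0.151) by the authors' deposited table. The glutamine carriers SLC1A5 and SLC38A2, named after their values were seen, had 0.14 and -0.13 and did not pass in the authors' deposited table. After subtraction of the median change of all genes, SLC7A1 no longer passed (adjusted p = 0.0625, recomputed from the authors' deposited table). SLC7A5 and SLC3A2, which both rose, stand outside the count of these 9 transporters and were chosen with earlier results known. Other carriers were counted in other lists, of which SLC1A4 rose and SFXN1, SFXN3 and SLC25A32 did not pass.

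Among 11 measured genes of leucine use and sensing, 1 rose (9.09%) and 0 fell, beside 8.23% and 8.17% of all genes. Their median log2 change was 0.21. LAMTOR1, which anchors the Ragulator complex that docks mTORC1 on lysosomes, rose by 0.52 (adjusted p = 0.000343, the authors' deposited table). Its partner LAMTOR5 had 0.40 (adjusted p = 0.0624) and SESN2, a leucine sensor and ATF4 target, had 0.43 (adjusted p = 0.106) by the authors' deposited table. In proline and glutamate metabolism 1 of 10 measured genes fell (10.0%) and 0 rose, beside 8.17% and 8.23% of all genes. The median log2 change there was 0.08. Glutamine synthetase, GLUL, had 0.36 and missed the threshold narrowly (adjusted p = 0.052, the authors' deposited table).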

How the data were processed

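Ribosome-protected fragments were obtained with RNase I and a sucrose gradient, using a mammalian kit, per the labels' protocols. The submitters' processing notes name genome build hg19 and, with no role for any tool, DESeq 1.10.1, HTSeq 0.5.3p9, SAMtools 0.1.18, Bowtie2 2.1.0, TopHat2 2.0.8 and CASAVA 1.9. What made the table, which region was counted and how low values were filtered is not given in the sources.

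The deposited log2 columns hold TE per condition and 2 estimates of its log2 change, of which the authors kept one, per the file headers. Each estimate has a deposited p-value, and the larger was kept in all 4616 rows. Deposited adjusted p-values equalled a Benjamini-Hochberg adjustment across all genes to within 2e-15. Single libraries had no values, so the planned count test was not run.

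Folds, percentiles and intervals were computed with Python 3.11.15, pandas 2.3.3, numpy 2.4.6 and scipy 1.17.1, tested on simulated data, and plotted with matplotlib 3.10.9. An interval is the change plus or minus a normal quantile times the standard error that the change and its p-value imply, and was left out where the p-value exceeded 0.9. Members and lists were chosen with earlier results of these data known. Named were all measured members, ATF4, TINCR, the 3 genes nearest to PHGDH, and per list up to 5 genes past the threshold by size and the 2 smallest p-values that missed it. Some genes under this rule are not reported here. Alternatives were both estimates, other thresholds, Bonferroni, centring and a precision filter. Sequences, gene overlaps and pseudogenes are from RefSeq, GRCh38.p14.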

Additional observations from a re-analysis of the deposited data

How the results depend on the processing

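PHGDH and SLC7A5 passed under each of the 7 alternatives run. The number of the 9 genes that rose was 4 with either version of the authors' estimate. No gene past the main threshold could be lost with either version, since the larger p-value had been kept, or at an adjusted p below 0.1. The number was also 4 after centring on the median of all genes, with p-values recomputed from the implied standard errors. It was 4 again among the 7 of them in the more precise part of the table. It was 3 at an adjusted p below 0.01, where PSAT1 was lost, and 2 with Bonferroni, where SLC3A2 was lost as well; both are stricter by construction. Of the genes of the surrounding lists, 5 rose and 7 fell. Those that rose were 1 at an adjusted p below 0.01, 8 at one below 0.1, 1 with Bonferroni and 3 after centring, where ADI1 and SLC7A1 were lost, and those that fell were 4 at an adjusted p below 0.01 and 0 with Bonferroni. With the p-values of each version in the authors' deposited table adjusted alone across all genes, GLUL passed in both (adjusted p = 0.0328 and 0.0437), SESN2 in the first (adjusted p = 0.0432) and LAMTOR5 in the second (adjusted p = 0.0144). No paired analysis was possible because the table holds no values per library, and leaving out replicates could not be run for the same reason. Depth is unknown, so which of the genes that missed the threshold were limited by it cannot be told.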
